A study of Mus musculus with 92 samples.

Results

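Mouse blastomeres that developed after injection of the microRNA labelled mi699a-5p were set against blastomeres of the negative control, labelled NC. Membership followed the treatment label alone, and no measured value was used to choose it. It gave 43 of the 81 single-blastomere libraries analysed, with 21 in the mi699a-5p group and 22 in the NC group. They came from 7 of the 14 mouse ids in the labels, with 6, 7, 4 and 4 blastomeres for mi699a-5p replicates 1 to 4 and 8, 8 and 6 blastomeres for NC replicates 1 to 3.

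Every embryo in both groups was labelled wild type (WT) and C57BL/6N, was injected as a zygote and was taken apart into blastomeres at the 8-cell stage. The same series holds embryos injected with let-7d or let-7e, which entered the statistical fit and are used here only as further levels of the same genes. No label gives the dose of the injected RNA, the sequence of mi699a-5p or of the control RNA, or the age of the parents, and what a mouse id stands for is not stated. The libraries were made by Smart-seq2, which amplifies full-length cDNA of 1 cell without molecular tags, so that a count is a read and not a molecule.

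MicroRNAs are short RNAs that guide Argonaute proteins to messenger RNAs through base pairing of a few bases at their 5′ end, called the seed. The bound messenger RNA is translated less and is shortened by deadenylases and decapping enzymes, so that an added microRNA is usually read out as lower levels of its direct targets, with further changes downstream. In the mouse the 8-cell stage follows activation of the embryo's own genome and the loss of most maternal transcripts, and it precedes the split into trophectoderm and inner cell mass. A target list for mi699a-5p was not used here, because its sequence was not in the reference tables used.

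The mi699a-5p blastomeres held 1575609 to 3086701 reads (median 2312759) and the NC blastomeres 1635385 to 3262799 reads (median 2518453). Summed per mouse id, depth lay between 7747901 and 17064971 reads in mi699a-5p and between 13351479 and 21859475 reads in NC. Of 15 transcripts listed as marks of the 8-cell embryo, 12 were measured, and their summed level was 3567 to 4873 CPM (counts scaled to the size of the library, here adjusted by edgeR's TMM factors) in mi699a-5p and 3411 to 3768 CPM in NC. Markers of other cell types were mostly without a row in the deposited table, which the authors had filtered on expression. Of 24 cumulus and granulosa cell markers 1 had a row, Amhr2, at 27.4 to 50.9 CPM in mi699a-5p and 35.1 to 55.2 CPM in NC. Of 25 sperm transcripts 2 had a row, with a sum of 27.7 to 90.0 CPM in mi699a-5p and 36.4 to 50.6 CPM in NC, of which Odf2 held 27.7 to 38.6 CPM in mi699a-5p and 25.3 to 44.4 CPM in NC. Of 20 blood, skin and stromal markers 1 had a row, Pecam1, with 26.6 to 321 CPM in mi699a-5p and 52.3 to 102 CPM in NC. Pecam1 had reads in all 8, 8 and 6 blastomeres of NC replicates 1 to 3. The highest value was that of mi699a-5p replicate 4, whose 4 blastomeres held 219 to 559 CPM.

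The groups differed in the sex chromosomes of their blastomeres before any other result. A blastomere with at least 100 reads of Xist, the RNA that coats an inactivating X chromosome, was counted as Xist-carrying, and 1 with at least 10 reads of Y-linked genes as Y-carrying. In mi699a-5p 9 blastomeres carried Xist, 11 carried Y-linked reads and 1 carried neither, against 4 with Xist and 18 with Y-linked reads in NC. All 6 blastomeres of mi699a-5p replicate 1 carried Xist, replicate 2 held 6 with Y-linked reads and the 1 with neither, and all 4 of replicate 3 carried Y-linked reads. Replicate 4 of mi699a-5p held 3 Xist-carrying blastomeres and 1 Y-carrying blastomere, and NC replicate 2 held 4 of each kind. Why both kinds occur under 1 mouse id in these 2 cases is not resolved by the labels. All blastomeres of NC replicates 1 and 3 carried Y-linked reads.

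The 231 measured X-linked genes, Xist aside, followed the same division. They took 2.58 to 3.77% of the reads in Xist-carrying mi699a-5p blastomeres and 1.84 to 2.77% in Y-carrying mi699a-5p blastomeres. The same share was 3.03 to 3.74% in Xist-carrying NC blastomeres and 1.67 to 2.34% in Y-carrying NC blastomeres. Within NC replicate 2 the 4 Xist-carrying blastomeres averaged 3.47% and the 4 Y-carrying ones 2.03%, and within mi699a-5p replicate 4 the 3 Xist-carrying ones averaged 3.57% beside 2.0% in the Y-carrying one. The blastomere with neither kind of read stood at 2.96%, above every Y-carrying blastomere and within the range of the Xist-carrying ones. It belonged to mi699a-5p replicate 2, whose 6 Y-carrying blastomeres stood at 1.84 to 2.77%. Whether that mouse id also holds both kinds was not tested.

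**Figure D1:**
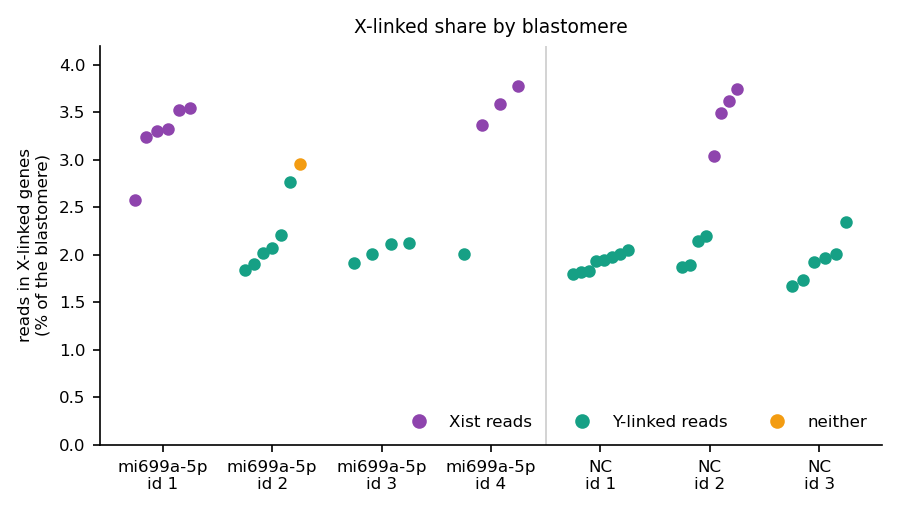
Share of each blastomere's reads in X-linked genes (percent, vertical axis) for the 7 mouse ids, mi699a-5p ids 1 to 4 on the left and NC ids 1 to 3 on the right. Each point is 1 blastomere, coloured by whether it carried Xist reads, Y-linked reads or neither, and the Xist-carrying points lie between 2.58 and 3.77%, above all Y-carrying points but 1 at 2.77%.

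Summed per mouse id, X-linked genes took 3.29, 2.21, 2.04 and 3.24% of the reads in mi699a-5p replicates 1 to 4, against 1.92, 2.73 and 1.92% in NC replicates 1 to 3. Of the X-linked genes 188 of 231 (81.4%) had a log2 fold change of mi699a-5p over NC above 0, with a median of 0.38, beside 54.1% and a median of 0.04 for all genes. With the Y-linked level of each mouse id as a covariate, 126 of the 231 lay above 0 and their median was 0.05. Between blastomeres of like kind the share averaged 3.36% in mi699a-5p and 3.47% in NC for the Xist-carrying ones, and 2.09% in mi699a-5p and 1.95% in NC for the Y-carrying ones. The list of X-linked genes was added after the values were seen. Genes on the X chromosome are marked as such in what follows.

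Some single blastomeres of mi699a-5p also stood apart. In 3 of the 21, of which replicate 1 held 2 and replicate 2 held 1, the summed levels of cytosolic ribosomal proteins, of mitochondrial ribosomal proteins and of nuclear-encoded subunits of oxidative phosphorylation all lay above every NC blastomere. The cytosolic ribosomal proteins took 92569, 144867 and 141053 CPM in these 3, against a highest value of 92339 CPM in NC, so that the lowest of the 3 exceeded the highest NC blastomere by little on that list. Their depth, 1608320 to 2376284 reads, lay within the range of the group. They also held the 3 values of 45.4, 81.2 and 137 CPM for Xpo1, far below the mi699a-5p median. These blastomeres were noticed after the values were seen. For some results, though not all, the value without them is given beside the value with them.

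No gene passed the threshold between mi699a-5p and NC. Of 7886 genes tested with edgeR's quasi-likelihood test, 0 (0.0%) had a Benjamini-Hochberg adjusted p under 0.05, and the lowest adjusted p was 0.193. At an unadjusted p under 0.05 there were 252 genes (3.2%) with a higher mean in mi699a-5p and 182 (2.31%) with a lower one. All 4 mi699a-5p mouse ids lay above all 3 NC mouse ids in 356 genes (4.51%) and below them in 305 genes (3.87%). These counts were 329 and 339 with DESeq2's RLE scaling and 269 and 266 from means over blastomeres, so which direction held more genes changed with the scaling. Without the 3 blastomeres that stood apart 0 genes were called, and the lowest adjusted p was 0.0549 (Fdx1). Then 401 genes had a higher and 333 a lower mean at an unadjusted p under 0.05, and 469 lay above and 516 below NC. The 3 were chosen from mi699a-5p alone by ribosomal and respiratory genes, so these counts are a description only. Among the 333 were 62 of the 82 cytosolic ribosomal protein genes and 14 of the 74 nuclear-encoded subunits of oxidative phosphorylation. DESeq2, run as an alternative on the sums of all blastomeres, called 7 of the 4369 genes (0.16%) to which it gave an adjusted p. These were Xpo1, Lin7c, Tug1 and Ints4 with higher means in mi699a-5p, and Fdx1, Cops7a and the identifier ENSMUSG00000118642.1 with lower means. The median standard error of a log2 fold change was 0.43, and 534 genes (6.77%) had a fold change past 1 on the log2 scale in either direction. The genes described below are therefore those with the smallest p-values, the widest gaps between groups or a place on a list of genes of this stage. Where a sentence calls a gene higher or lower it compares means only, unless a passed test is named.

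Xpo1 encodes exportin 1, which carries proteins and RNAs out of the nucleus. It lies on chromosome 11 at 23256041 to 23298249 on the plus strand of GRCm38. Xpo1 measured 988, 993, 1292 and 912 CPM in mi699a-5p, against 445, 574 and 616 CPM in NC. The groups did not overlap, and the log2 fold change was 0.94 ± 0.21 (SE, adjusted p = 0.503 by edgeR and 0.0246 by DESeq2). In single blastomeres it spanned 45.4 to 1899 CPM in mi699a-5p (median 1166) and 64.7 to 1637 CPM in NC (median 478), so that the ranges overlapped while 17 of 21 mi699a-5p blastomeres lay above the NC median.

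Lin7c encodes a scaffold protein of cell polarity complexes and lies on chromosome 2 at 109890853 to 109901003, plus strand. Lin7c measured 197, 234, 314 and 241 CPM in mi699a-5p, against 110, 128 and 120 CPM in NC. The difference was 1.04 ± 0.23 on the log2 scale (adjusted p = 0.503 by edgeR and 0.0285 by DESeq2), with 18 of 21 mi699a-5p blastomeres above the NC median of 106 CPM.

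Tug1 is a long noncoding RNA gene on chromosome 11, at 3639785 to 3649673 on the minus strand, and it is annotated as antisense. Tug1 measured 435, 373, 643 and 369 CPM in mi699a-5p, against 247, 168 and 205 CPM in NC, with a log2 fold change of 1.14 ± 0.27 (adjusted p = 0.673 by edgeR and 0.0285 by DESeq2). Whether the authors counted reads by strand is not given in the sources used here, so its reads cannot be told apart from those of an overlapping gene on the other strand. Single mi699a-5p blastomeres spanned 4.32 to 872 CPM and NC blastomeres 13.9 to 543 CPM.

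Ints4 encodes a subunit of Integrator, the complex that cleaves nascent RNAs at many genes, and lies on chromosome 7 at 97480956 to 97541395, plus strand. Ints4 was the most even of these genes across mouse ids, with 163, 182, 157 and 174 CPM in mi699a-5p and 88.3, 85.3 and 83.4 CPM in NC. Its log2 fold change was 0.98 ± 0.24 (adjusted p = 0.689 by edgeR and 0.0453 by DESeq2), and 19 of 21 mi699a-5p blastomeres lay above the NC median of 63.3 CPM.

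Fdx1 encodes ferredoxin 1, the mitochondrial electron carrier of steroid and iron-sulfur metabolism, and lies on chromosome 9 at 51943306 to 51963556, minus strand. Fdx1 measured 45.3, 46.8, 22.4 and 31.3 CPM in mi699a-5p, against 130, 67.2 and 117 CPM in NC. The difference of -1.52 ± 0.32 on the log2 scale had an adjusted p of 0.503 by edgeR and 0.00993 by DESeq2. One mi699a-5p blastomere, 1 of the 3 that stood apart, reached 243 CPM, above every NC blastomere (highest 207 CPM), while the other 20 lay below the NC median of 99.2 CPM.

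Cops7a encodes a subunit of the COP9 signalosome, which removes the NEDD8 modifier from cullin ubiquitin ligases, and lies on chromosome 6 at 124958413 to 124965538, minus strand. Cops7a measured 278, 261, 210 and 208 CPM in mi699a-5p, against 417, 359 and 483 CPM in NC, a log2 fold change of -0.81 ± 0.20 (adjusted p = 0.785 by edgeR and 0.0453 by DESeq2). It was detected in every blastomere of both groups, and 20 of 21 mi699a-5p blastomeres lay below the NC median of 402 CPM.

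The smallest p of the fit belonged to ENSMUSG00000118642.1, an identifier that has no name in the annotation used. It measured 52.2, 41.4, 76.2 and 25.3 CPM in mi699a-5p, against 164, 151 and 277 CPM in NC. Its log2 fold change was -2.02 ± 0.36 (adjusted p = 0.193 by edgeR and 0.000257 by DESeq2). In single blastomeres 20 of 21 mi699a-5p values lay below the NC median of 138 CPM, although NC blastomeres themselves spanned 4.98 to 775 CPM. Reads in genes of ribosomal RNA were 9.95% ± 2.16 in mi699a-5p (SD, n = 4) and 12.9% ± 3.24 in NC (SD, n = 3), a difference with p = 0.2 in an exact permutation test over mouse ids (two-sided, adjusted p = 0.6 over 6 quality measures, smallest possible p 0.0286). The annotation used does not say whether the identifier is a ribosomal RNA, and the part of that share in the difference was not tested.

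**Figure D2:**
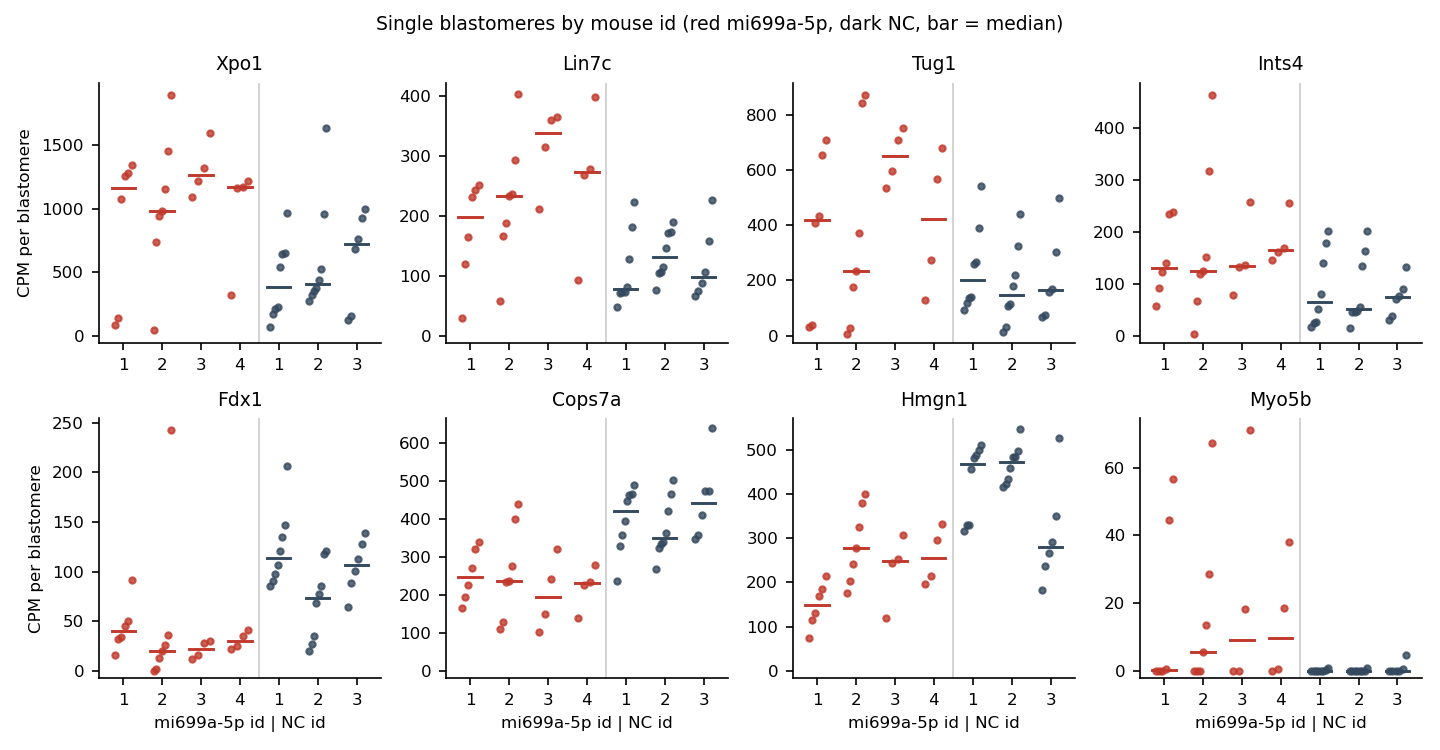
Level of 8 genes in single blastomeres (CPM, vertical axes) by mouse id, with mi699a-5p ids 1 to 4 on the left of each panel and NC ids 1 to 3 on the right; bars are medians of an id. Xpo1, Lin7c, Tug1 and Ints4 have higher medians in mi699a-5p ids, Fdx1, Cops7a and Hmgn1 lower ones, with overlapping single blastomeres in every panel, and Myo5b stays under 5 CPM in NC.

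Of the other genes with higher means, Myo5b had the largest log2 fold change among the 12 of smallest p. Myo5b encodes myosin Vb, a motor that moves recycling endosomes along actin. It measured 19.7, 15.8, 18.4 and 15.0 CPM in mi699a-5p, against 0.143, 0.0910 and 0.729 CPM in NC, where the sums held 3, 2 and 9 reads. The even values per mouse id came from uneven blastomeres, since 12 of 21 mi699a-5p blastomeres had any read (highest 71.1 CPM) and 5 of 22 NC blastomeres had any (highest 4.59 CPM). The log2 fold change of 5.79 ± 1.3 (edgeR, adjusted p = 0.503) was 7.11 without NC replicate 3 and 2.14 from means over blastomeres.

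Gfm1, the mitochondrial translation elongation factor G1, measured 110, 156, 122 and 147 CPM in mi699a-5p and 38.9, 60.1 and 77.4 CPM in NC. Cwc22, a spliceosome protein that recruits the exon junction complex, measured 117, 264, 146 and 138 CPM in mi699a-5p and 86.3, 77.7 and 59.5 CPM in NC. Champ1, a zinc finger protein of chromosome attachment to the spindle, measured 82.8, 107, 118 and 142 CPM in mi699a-5p and 56.7, 56.1 and 61.2 CPM in NC. In all 3 the groups did not overlap, and the log2 fold changes were 1.19 ± 0.31, 1.16 ± 0.31 and 0.96 ± 0.27 (edgeR, adjusted p = 0.822 for the first pair and 0.83 for Champ1).

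Mfsd14b, a transporter of the major facilitator family, averaged 492 ± 125 CPM in mi699a-5p and 289 ± 17.9 CPM in NC. Drd3, a dopamine receptor gene, averaged 19.5 ± 7.82 CPM in mi699a-5p and 2.79 ± 0.976 CPM in NC, with reads in 16 of 21 mi699a-5p blastomeres and 11 of 22 NC blastomeres. Gm14295 averaged 41.2 ± 8.09 CPM in mi699a-5p and 12.5 ± 4.86 CPM in NC, and has near-identical relatives among which reads could be split. Bola1, a mitochondrial protein of iron-sulfur cluster assembly, rested on 1 mouse id: it measured 29.3, 204, 61.2 and 22.9 CPM in mi699a-5p and 23.0, 13.7 and 16.7 CPM in NC. Its groups overlapped, and its log2 fold change of 2.16 was 1.08 without mi699a-5p replicate 2, in which a single blastomere, 1 of the 3 that stood apart, reached 950 CPM, and 1.47 without those 3.

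The remaining genes with lower means included chromatin and signalling proteins. Hmgn1, a protein that loosens nucleosomes, measured 165, 281, 221 and 256 CPM in mi699a-5p and 440, 446 and 344 CPM in NC, with all 21 mi699a-5p blastomeres below the NC median of 446 CPM. Its log2 fold change was -0.83 ± 0.21 (edgeR, adjusted p = 0.785), and it has many processed copies in the genome that could take part of its reads. Mga, a transcription factor that partners Max in a repressive Polycomb complex, measured 81.1, 61.6, 86.8 and 71.7 CPM in mi699a-5p and 162, 96.6 and 207 CPM in NC. Elp3, the catalytic subunit of Elongator, which modifies transfer RNAs, averaged 20.9 ± 7.36 CPM in mi699a-5p and 65.3 ± 22.9 CPM in NC.

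Prdx6, a peroxiredoxin that reduces phospholipid peroxides, measured 349, 340, 438 and 350 CPM in mi699a-5p and 734, 604 and 508 CPM in NC, and all 21 mi699a-5p blastomeres lay below the NC median of 614 CPM. Pink1, the kinase that marks damaged mitochondria for mitophagy, measured 16.7, 9.27, 13.1 and 18.9 CPM in mi699a-5p and 30.3, 34.6 and 46.8 CPM in NC. Rap1b, a small GTPase of cell adhesion, averaged 28.1 ± 2.55 CPM in mi699a-5p and 56.8 ± 11.9 CPM in NC. Kcmf1, a ubiquitin ligase, averaged 62.6 ± 15.4 CPM in mi699a-5p and 124 ± 31.5 CPM in NC. Cyp2s1, a cytochrome P450, measured 152, 224, 251 and 200 CPM in mi699a-5p and 522, 309 and 344 CPM in NC, and Sh3d21 averaged 13.9 ± 2.73 CPM in mi699a-5p and 42.7 ± 23.9 CPM in NC. Their log2 fold changes ran from -0.74 for Prdx6 to -1.62 for Sh3d21, with adjusted p-values by edgeR of 0.822 to 0.83.

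**Figure D3:**
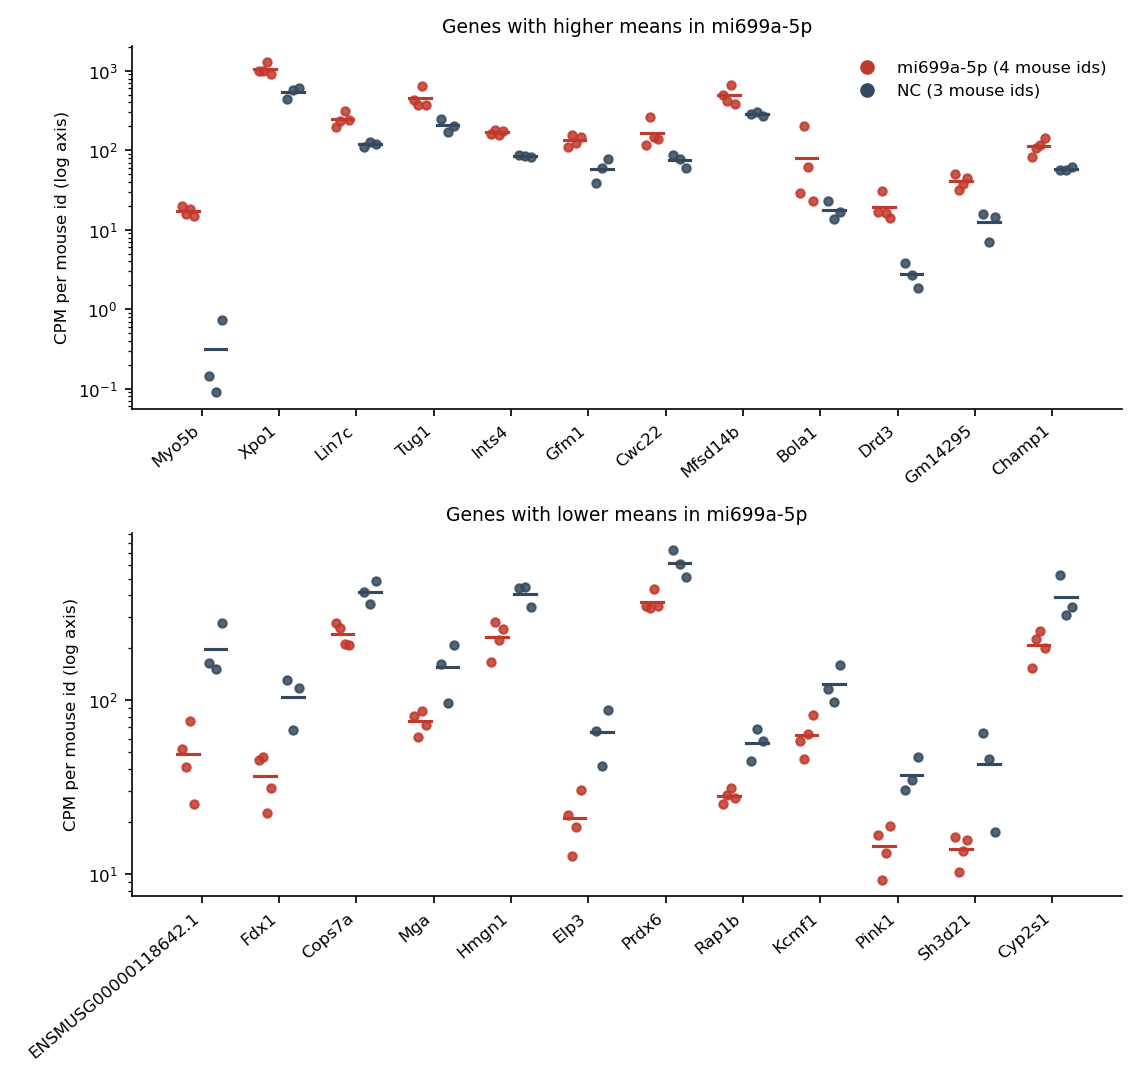
CPM per mouse id (log axes) of the 12 genes of smallest p with higher means in mi699a-5p (upper panel) and the 12 with lower means (lower panel). Red points are the 4 mi699a-5p mouse ids, dark points to their right the 3 NC mouse ids, and bars the group means; the groups are apart in every gene shown but Bola1, where mi699a-5p replicate 4 at 22.9 CPM lies below NC replicate 1 at 23.0 CPM.

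Ranked by the gap between groups, most of the other genes were at low levels and present in part of the blastomeres. With higher values in mi699a-5p, Zfp398, a zinc finger gene, measured 18.9, 16.6, 16.8 and 15.8 CPM in mi699a-5p and 4.81, 4.37 and 0.0810 CPM in NC, with reads in 14 of 21 mi699a-5p blastomeres and 7 of 22 NC blastomeres. Mef2a, a MADS-box transcription factor, averaged 16.8 ± 2.23 CPM in mi699a-5p and 3.89 ± 0.289 CPM in NC. Sacm1l, a phosphoinositide phosphatase, averaged 11.7 ± 6.12 CPM in mi699a-5p and 2.42 ± 0.416 CPM in NC. The X-linked 1810030O07Rik averaged 13.6 ± 6.47 CPM in mi699a-5p and 1.38 ± 1.13 CPM in NC.

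With lower values, Cyb5r3, a reductase of cytochrome b5, measured 0, 0.174, 1.78 and 1.22 CPM in mi699a-5p and 10.6, 13.5 and 6.72 CPM in NC, with reads in 3 of 21 mi699a-5p blastomeres and 13 of 22 NC blastomeres. Cbs, the first enzyme of the conversion of homocysteine to cysteine, averaged 5.84 ± 2.39 CPM in mi699a-5p and 22.6 ± 7.17 CPM in NC, with reads in 7 of 21 mi699a-5p blastomeres and 17 of 22 NC blastomeres. Man2b1, a lysosomal mannosidase, averaged 9.40 ± 3.88 CPM in mi699a-5p and 25.7 ± 1.48 CPM in NC. Cyp4f17, a cytochrome P450, measured 2.11, 7.42, 5.23 and 5.90 CPM in mi699a-5p and 23.7, 19 and 15.5 CPM in NC, and Plpp2, a lipid phosphatase, measured 4.07, 0.0579, 2.80 and 3.34 CPM in mi699a-5p and 15.0, 8.74 and 9.24 CPM in NC. None of these 9 genes had an adjusted p by edgeR below 0.858.

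The gene lists that follow are read against all genes, of which 5.5% had an unadjusted p under 0.05, 3.2% with higher and 2.31% with lower means, and 4.51% lay above and 3.87% below NC in every mouse id. No list was tested. Among proteins of the microRNA pathway few values stood apart. Of 7 measured microRNA processing enzymes 1 had an unadjusted p under 0.05. It was Tarbp2, the partner of Dicer, at 53.6, 38.3, 61.9 and 61.3 CPM in mi699a-5p and 100, 90.4 and 104 CPM in NC (log2 fold change -0.87 ± 0.28, edgeR adjusted p = 0.858). Of 11 Argonaute, GW182 and associated proteins 1 did, Fxr1, an RNA-binding protein, at 118 ± 41.5 CPM in mi699a-5p and 65.8 ± 9.25 CPM in NC. Of 19 genes of deadenylases and associated proteins 1 did. It was the poly(A)-binding protein gene Pabpc4, at 127 ± 11.4 CPM in mi699a-5p and 205 ± 41.7 CPM in NC. Of 34 decapping and exonuclease genes 2 did, both higher in mi699a-5p: the X-linked Upf3b of nonsense-mediated decay (0.89 ± 0.40) and Edc4, the scaffold of decapping (0.61 ± 0.28), both as log2 fold changes. The medians of these 4 lists lay between 0.05 and 0.22, beside 0.04 for all genes. The median of the decapping and exonuclease list, 0.17, was -0.12 without the 3 blastomeres that stood apart.

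Stage markers had medians near that of all genes or rested on few members. Of 24 measured maternal transcripts 14 had a log2 fold change above 0, with a median of 0.14. Zp3, a protein of the egg coat, had a lower mean (-1.09 ± 0.46), while Bpgm (1.67 ± 0.72) and Omt2b (1.03 ± 0.49) had higher ones, all at an unadjusted p under 0.05. The value of Zp3 was -1.49 without the 3 blastomeres that stood apart and -0.58 without NC replicate 2. Of 10 measured genes of the 2-cell stage and early genome activation 7 lay above 0 (median 0.31), and 1 of them, Tdpoz1, had an unadjusted p under 0.05 at 1.66 ± 0.59. Omt2b and Tdpoz1 belong to families of near-identical copies, so their counts are uncertain. Of 24 pluripotency and inner cell mass markers 11 lay above 0 (median -0.10). Pou5f1, the pluripotency factor Oct4, measured 175, 117, 151 and 102 CPM in mi699a-5p and 190, 150 and 366 CPM in NC, with overlapping groups, and Klf2, a Krüppel-like factor, measured 56.3, 51.0, 27.9 and 34.6 CPM in mi699a-5p and 19.9, 23.2 and 22.5 CPM in NC. The log2 fold change of Klf2 was 0.96, and 0.27 without the 3 blastomeres that stood apart.

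Trophectoderm and Hippo pathway genes had 17 of 28 members above 0 (median 0.14), with 3 at an unadjusted p under 0.05 and 5 whose mi699a-5p mouse ids all lay above NC, beside 3.2% higher at that p and 4.51% above NC among all genes. Cldn7, a claudin of tight junctions, measured 271, 178, 229 and 227 CPM in mi699a-5p and 136, 107 and 138 CPM in NC. Stk4, the Hippo kinase MST1, measured 216, 153, 126 and 120 CPM in mi699a-5p and 110, 73.5 and 101 CPM in NC. The log2 fold changes of Cldn7 and Stk4 were 0.83 ± 0.27 and 0.70 ± 0.33. The median of the list ran from 0.05 to 0.53 over the alternatives tried, the highest without NC replicate 2. Among 39 genes of compaction, adhesion and polarity 22 lay above 0, and 3 had a higher and 1 a lower mean at an unadjusted p under 0.05. Besides Lin7c and Cldn7 the higher one was Jup, plakoglobin of desmosomes and adherens junctions (0.77 ± 0.37). The lower one was Pard6b, a polarity protein, at 2.11, 7.82, 2.17 and 0 CPM in mi699a-5p and 33.5, 5.23 and 27.4 CPM in NC. Of 28 Rab GTPases and myosin V motors Rab10, a GTPase of secretory transport, had a lower mean (-0.81 ± 0.30) and Myo5b a higher one.

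Cell cycle genes were described as 2 lists, and 54.1% of all genes lay above 0. Of 51 G2/M genes 35 (68.6%) lay above 0, with a median of 0.18, and 7 had a higher and 1 a lower mean at an unadjusted p under 0.05, beside 3.2% and 2.31% of all genes. Kif20a, a kinesin of the spindle midzone, measured 283, 255, 464 and 474 CPM in mi699a-5p and 173, 226 and 196 CPM in NC. Prc1, which bundles midzone microtubules, measured 440, 232, 350 and 423 CPM in mi699a-5p and 188, 202 and 225 CPM in NC, and Bub1b, a spindle checkpoint kinase, averaged 55.6 ± 10.5 CPM in mi699a-5p and 28.5 ± 3.02 CPM in NC. Cenpa, the centromeric histone H3 variant, was the 1 member with a lower mean, at 163, 186, 177 and 164 CPM in mi699a-5p and 278, 259 and 434 CPM in NC. The median of the list relative to the NC mean was 0.04, 0.16, 0.21 and 0.44 in mi699a-5p replicates 1 to 4 and -0.07, 0.15 and -0.08 in NC replicates 1 to 3. The groups overlapped on that measure. Of 49 S phase genes 30 lay above 0 (median 0.14). Pold1, a DNA polymerase subunit (1.26 ± 0.41), Rrm1, a subunit of ribonucleotide reductase (0.67 ± 0.24), and Orc1 of the origin recognition complex (0.93 ± 0.35) had higher means. Ccne1, cyclin E1 of the entry into S phase, had a lower one (-0.62 ± 0.20), at 327, 420, 367 and 431 CPM in mi699a-5p and 515, 546 and 713 CPM in NC.

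Nuclear transport genes had 33 of 56 members above 0 (median 0.09), and the 3 at an unadjusted p under 0.05 were all higher, beside 5.5% of all genes at that p. Beside Xpo1 these were Cse1l, the export receptor of importin alpha, at 325, 248, 366 and 342 CPM in mi699a-5p and 189, 190 and 224 CPM in NC, and the import receptor gene Ipo5, at 1181, 1262, 1319 and 1036 CPM in mi699a-5p and 860, 806 and 973 CPM in NC. Their log2 fold changes were 0.67 ± 0.22 and 0.45 ± 0.20. Of 65 ribosome biogenesis genes 37 lay above 0 (median 0.03), with Mphosph10 (0.70 ± 0.21), Wdr36 (0.53 ± 0.21) and the helicase gene Ddx21 (0.41 ± 0.18) higher and Noc2l (-0.75 ± 0.25) lower. Of 47 translation factors 18 lay above 0 (median -0.08), with the X-linked Eif2s3x at 0.87 ± 0.31 and Eif2b2, a subunit of the exchange factor of eIF2, at -0.50 ± 0.21.

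All 10 measured COP9 signalosome genes gave 2 above and 8 below 0, with a median of -0.23 and Cops7a as the 1 member at an unadjusted p under 0.05. Without Cops7a the other 9 summed to 1264, 1271, 1240 and 1380 CPM in mi699a-5p and 1441, 1360 and 1509 CPM in NC, and the groups overlapped. In the iron-sulfur cluster and ferredoxin list 12 of 30 lay above 0 (median -0.12). That median ran from -0.31, without the 3 blastomeres that stood apart, to -0.03 over the alternatives tried. Beside Fdx1, Ciao2a of the cytosolic iron-sulfur targeting complex had a lower mean (-0.78 ± 0.28), and Bola1 had a higher one. Of 25 fatty acid oxidation genes 8 lay above 0 (median -0.11). Acad8 of the list, an acyl-CoA dehydrogenase, belongs to valine breakdown. It measured 52.2, 57.4, 71.1 and 38.6 CPM in mi699a-5p and 90.5, 103 and 107 CPM in NC. Acaa2, a thiolase, averaged 6.52 ± 3.77 CPM in mi699a-5p and 26.4 ± 16.7 CPM in NC. The X-linked Acsl4 had a log2 fold change of 0.85 ± 0.40, which was 1.49 without NC replicate 2 and 0.59 without NC replicate 3. Of 29 genes of pyruvate dehydrogenase and the TCA cycle 15 lay above 0 (median 0.04), with Dld (0.84 ± 0.33) and the X-linked Pdha1 (0.58 ± 0.27) higher. Of 16 glycolysis genes 12 lay above 0 (median 0.12), with 0 at an unadjusted p under 0.05 in either direction; Aldoa, an aldolase of high level in the list, had 0.60 ± 0.33.

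Stress lists held few small p-values. Of 26 integrated stress response genes 16 lay above 0 (median 0.11), and the chaperone gene Hspa5 of the endoplasmic reticulum (0.75 ± 0.30) and its cochaperone Dnajb9 (0.60 ± 0.28) had higher means. Of 35 heat shock and chaperone genes 18 lay above 0 (median 0.02), with Dnajc2 (-0.61 ± 0.26) and Dnajb1 (-0.78 ± 0.33) lower. Of 28 p53 response genes 13 lay above 0 and 0 had an unadjusted p under 0.05. Their median was -0.03, and it ran from -0.31, without the 3 blastomeres that stood apart, to 0.12 over the alternatives tried. Tigar of that list, a regulator of glycolysis, had 0.23 ± 0.27. Of 9 measured genes of the interferon and double-stranded RNA response 6 lay above 0 and 0 had an unadjusted p under 0.05. Oasl2 of that list had 34.3, 34.8, 12.9 and 67.8 CPM in mi699a-5p and 37.9, 6.15 and 7.21 CPM in NC, with overlapping groups. Its log2 fold change of 1.13 was 2.49 without NC replicate 1 and 0.66 without mi699a-5p replicate 4. Of 28 let-7 targets from the literature 13 lay above 0 (median -0.03). Map3k1 of that list, a kinase of JNK signalling, was higher at 1.78 ± 0.63. Its value was 2.79 without NC replicate 2 and 1.275 without NC replicate 3.

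Larger gene classes were described in the same way. Of 174 Zfp zinc finger genes 110 (63.2%) lay above 0 (median 0.18), among them Zfp143 (0.82 ± 0.30), Zfp51 (0.90 ± 0.34) and Zfp638 (0.64 ± 0.27), and 8 had all mi699a-5p mouse ids above NC while 5 had all below, beside 4.51% and 3.87% of all genes. Of 82 cytosolic ribosomal protein genes 27 (32.9%) lay above 0, with a median of -0.04 and 1 member at an unadjusted p under 0.05, Rps2, at -0.47 ± 0.20. Rps2 has many processed copies, so its count is uncertain. Of 128 solute carriers 68 lay above 0 (median 0.03). Slc23a2, a vitamin C transporter (1.49 ± 0.51), and Slc39a10, a zinc importer (1.29 ± 0.53), had higher means, and Slc46a1, the proton-coupled folate transporter (-1.17 ± 0.45), and Slc30a2, a zinc exporter (-3.22 ± 1.34), lower ones. The value of Slc23a2 was 2.16 without NC replicate 1 and 1.17 without NC replicate 3. That of Slc30a2 was -6.94 without mi699a-5p replicate 1, which held nearly all of that group's reads. Slc30a2 stood at -5.54 without the 3 blastomeres that stood apart, and at -6.94 to -1.51 over the alternatives tried. Of 35 proteasome subunits 19 lay above 0 (median 0.02), with Psmd3 at -0.46 ± 0.20. Among the 5 most abundant genes of the table were CT010467.1, annotated as ribosomal RNA, mt-Rnr2, the mitochondrial large ribosomal RNA, and Alppl2, an alkaline phosphatase. Their log2 fold changes were -0.46 ± 0.35, -0.37 ± 0.31 and -0.27 ± 0.22.

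**Figure D4:**
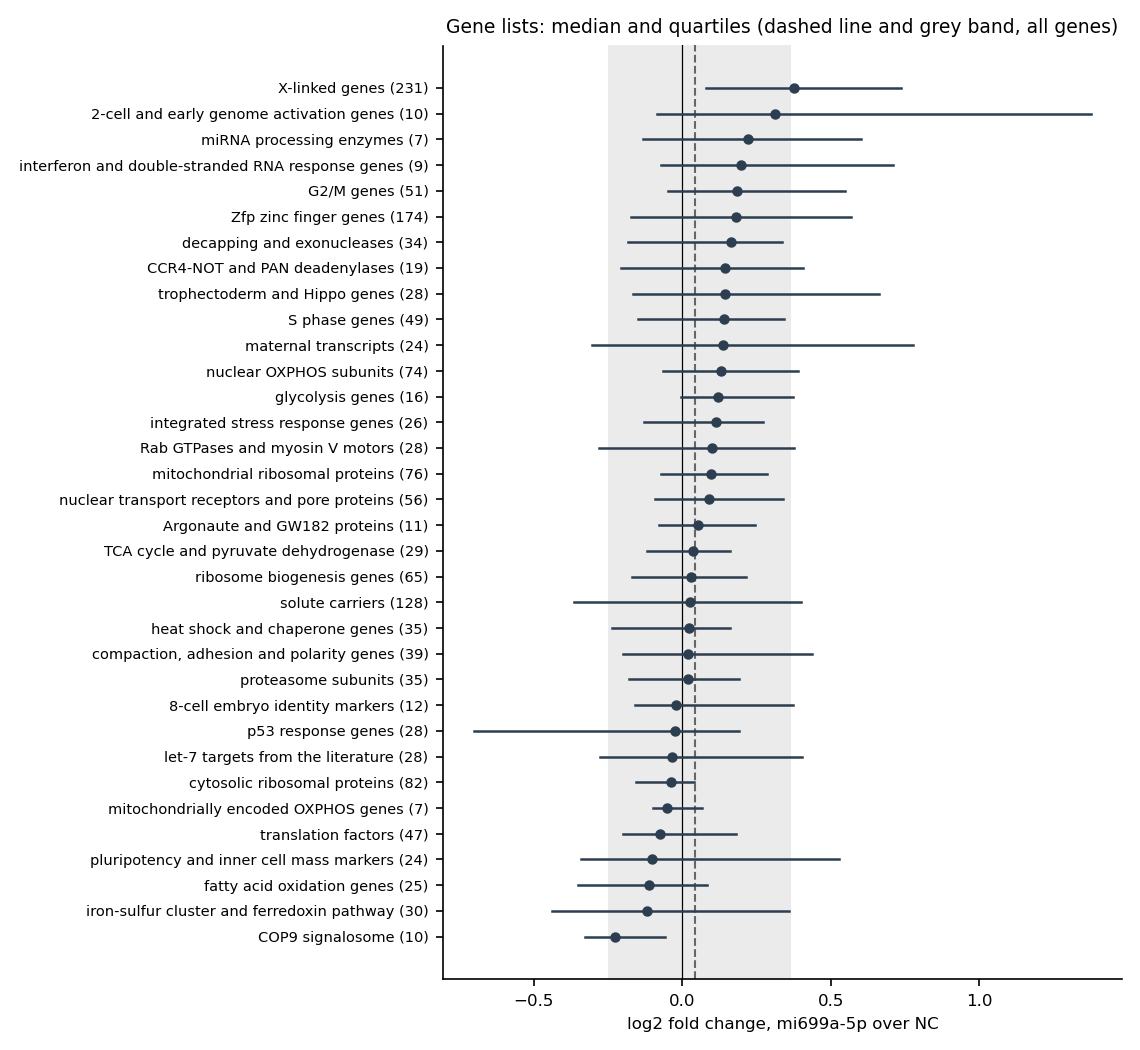
Log2 fold change of mi699a-5p over NC (horizontal axis) for each gene list with at least 7 measured genes, the number of genes in parentheses. Points are medians and lines quartiles; the dashed line and grey band are the median (0.04) and quartiles of all genes, and list medians run from -0.23 for the COP9 signalosome to 0.38 for X-linked genes.

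The mi699a-5p mouse ids were widely spread in 3 lists of ribosomal and respiratory genes, in which the 3 blastomeres that stood apart weigh on replicates 1 and 2. For the 74 nuclear-encoded subunits of oxidative phosphorylation, the median log2 difference from the NC mean was 0.75, 0.39, -0.33 and -0.36 in mi699a-5p replicates 1 to 4 and 0.04, -0.03 and 0.00 in NC replicates 1 to 3. For the 82 cytosolic ribosomal proteins it was 0.43, 0.10, -0.43 and -0.59 in mi699a-5p and 0.10, -0.12 and 0.01 in NC. For the 76 mitochondrial ribosomal proteins it was 0.46, 0.26, -0.19 and -0.17 in mi699a-5p and 0.01, -0.07 and 0.08 in NC. In these sums replicates 1 and 2 of mi699a-5p lay above replicates 3 and 4, with the NC mouse ids between them. Without the 3 blastomeres replicates 1 and 2 stood at -0.36 and -0.19 for oxidative phosphorylation. They stood at -0.59 and -0.53 for cytosolic ribosomal proteins and at -0.28 and -0.11 for mitochondrial ribosomal proteins. The 3 were chosen for high levels of these same lists, which by itself lowers the values without them, so these are a description only.

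Medians over all blastomeres of a mouse id did not follow that order. For oxidative phosphorylation the median blastomere of each mouse id summed to 9751, 10020, 9374 and 9171 CPM in mi699a-5p and to 9730, 9772 and 8963 CPM in NC, with overlapping groups. For mitochondrial ribosomal proteins it summed to 5234, 5470, 5510 and 5168 CPM in mi699a-5p and to 5493, 5650 and 5215 CPM in NC, again with overlap. For cytosolic ribosomal proteins, which build the ribosome of the cytoplasm, it summed to 33814, 34807, 33887 and 34753 CPM in mi699a-5p. The NC values were 45917, 39772 and 37822 CPM, and the groups did not overlap. This measure was taken only for these 3 lists, already singled out for their spread, so no share over other lists stands beside it. Summed per mouse id, the cytosolic ribosomal proteins took 60204, 48373, 35856 and 34008 CPM in mi699a-5p. In NC they took 50202.5, 43503 and 48015 CPM, with overlap. The highest blastomere of each id reached 144867, 141053, 43072 and 38459 CPM in mi699a-5p and 69524, 92339 and 71038 CPM in NC for the same genes, so high blastomeres occurred in both groups. The median log2 fold change of the 82 cytosolic ribosomal protein genes was -0.04 with all blastomeres and -0.54 without the 3, which were chosen by these same genes, so that value is a description only.

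**Figure D5:**
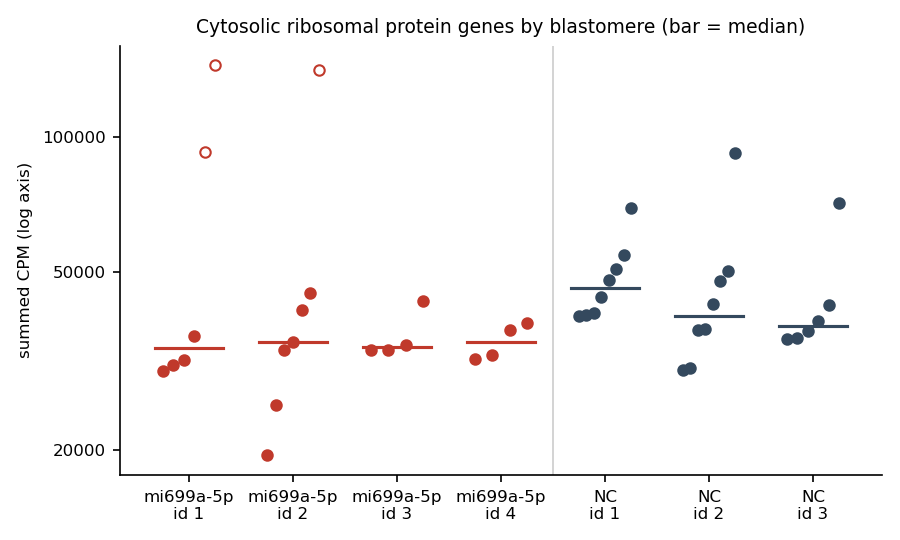
Summed level of the 82 cytosolic ribosomal protein genes in each blastomere (CPM, vertical log axis) by mouse id, mi699a-5p ids 1 to 4 on the left and NC ids 1 to 3 on the right; bars are medians of an id. The id medians lie between 33814 and 34807 CPM in mi699a-5p, below the 37822 to 45917 CPM of NC, while 3 open red points of replicates 1 and 2 lie above every NC blastomere. Such medians were taken for 3 lists only, and the summed levels per mouse id overlapped between groups.

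The spread is given at both levels as a description. The median SD of log2(CPM + 1) over genes was 1.51 between blastomeres within mi699a-5p mouse ids and 1.47 within NC mouse ids. Between mouse ids it was 0.62 in mi699a-5p and 0.48 in NC. For the 2091 genes with a mean over 100 CPM the SD within mouse ids was 0.81 in mi699a-5p and 0.65 in NC, and between mouse ids it was 0.38 in mi699a-5p and 0.29 in NC. Values of a mouse id combine 4 to 8 blastomeres, which by itself makes their spread the smaller one.

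The let-7 groups gave a second set of levels for the same genes. Against the mean of let-7d and let-7e, mi699a-5p had 0 genes with an adjusted p under 0.05 (edgeR, lowest adjusted p = 0.538) and 504 genes with an unadjusted p under 0.05, of which 291 had higher and 213 lower means in mi699a-5p. This comparison shares the mi699a-5p mouse ids with the one against NC, so the values are given side by side. Cops7a was also lower than in let-7 embryos, with 239 CPM in mi699a-5p, 398 CPM in let-7d and 444 CPM in let-7e (-0.81 ± 0.17). Fdx1 averaged 36.4 CPM in mi699a-5p, 80.4 CPM in let-7d and 77.2 CPM in let-7e (-1.11 ± 0.27). Pink1 averaged 14.5 CPM in mi699a-5p, 45.1 CPM in let-7d and 38.6 CPM in let-7e (-1.53 ± 0.33). The adjusted p was 0.538 for each of these 3 genes. Xpo1 averaged 1046 CPM in mi699a-5p, 986 CPM in let-7d and 937 CPM in let-7e (0.12 ± 0.17), and Tug1 averaged 455 CPM in mi699a-5p, 505 CPM in let-7d and 374 CPM in let-7e (0.07 ± 0.22). Gfm1 averaged 134 CPM in mi699a-5p, 144 CPM in let-7d and 128 CPM in let-7e (-0.02 ± 0.25), while its NC mean was 58.8 CPM. ENSMUSG00000118642.1 averaged 48.8 CPM in mi699a-5p, 31.3 CPM in let-7d and 86.2 CPM in let-7e (-0.09 ± 0.30), below its NC mean of 197 CPM. For these 4 the level in mi699a-5p lay nearer to the let-7 means than to the NC mean. They are examples, and the same held for others named above, though not for Pink1. The genes compared here were named for a small p or a wide gap against NC. That choice by itself favours NC values far from those of other groups, so this nearness is a description only. Its share over all genes was not counted. Lin7c averaged 246 CPM in mi699a-5p, 231 CPM in let-7d and 200 CPM in let-7e, against 120 CPM in NC. Drd3 averaged 19.5 CPM in mi699a-5p, 10.9 CPM in let-7d and 15.8 CPM in let-7e, against 2.79 CPM in NC. Zfp398 averaged 17.0 CPM in mi699a-5p, 15.9 CPM in let-7d and 15.7 CPM in let-7e, against 3.09 CPM in NC.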

How the data were processed

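Per the labels, zygotes were injected and single blastomeres were sequenced at the 8-cell stage with Smart-seq2. The authors deposited raw read counts per gene and blastomere, and the values are whole numbers. The submitters' processing notes name STAR and GRCm38.p6, and the counting program and its strand setting are not given in the sources used here. The table holds 7886 genes left after a CPM filter by the authors, of which 7884 matched GENCODE M21. The deposited RPKM values were not used. Of 92 labelled samples 82 have a column, and 10 were not analysed here. One let-7d pair whose difference was about that of sampling noise was counted as 1 library. No such pair occurred among mi699a-5p and NC.

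Counts were summed per mouse id, which was taken as the replicate, although the labels do not say that blastomeres of 1 id share an embryo. Replicate 4 of mi699a-5p and replicate 2 of NC held both Xist-carrying and Y-carrying blastomeres, so 1 id need not be 1 embryo. The labels do not say that ids are separate embryos or animals, so p-values measure the spread between these ids. edgeR 4.0.16 (R 4.3.3) was fitted to all 14 ids in 4 groups with TMM scaling, filterByExpr (0 genes removed), quasi-likelihood F tests (10 residual degrees of freedom), two-sided, Benjamini-Hochberg at 0.05. It was tested on simulated data with 200 changed genes. Levels per mouse id are CPM scaled by TMM factors, and levels per blastomere are CPM of its total. Errors are standard errors beside log2 fold changes and SDs over mouse ids beside CPM. Alternatives included DESeq2 1.42.0, limma 3.58.1 on means over blastomeres, other scalings and filters, and leaving out each mouse id. Quality measures used exact permutation over 35 arrangements. Named genes were the 12 of smallest p in each direction with a group mean of at least 5 CPM, DESeq2 calls, up to 4 members of each list at an unadjusted p under 0.05 (otherwise the 2 of highest level), the 5 most abundant genes, and the 6 widest gaps in each direction. Some genes named only for their level in a list without small p-values are not described one by one. The members and lists were chosen with earlier results of these data known. Results that need items withheld for evaluation are not reported here.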

Additional observations from a re-analysis of the deposited data

Results flagged for a closer look

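Among the 4 mi699a-5p mouse ids, 5 of 99 tested features held a single value far from the other three by the gap to its neighbour as a share of the range, a criterion that flags about 1 in 20 groups by chance. Fxr1 stood at 179.5 CPM in replicate 2, with 3 values of 91.7 to 102 CPM beside it. Pdha1 stood at 303.2 CPM in replicate 2, beside 494 to 525 CPM in the other ids, and the Pdha1 gene is X-linked. Acaa2 stood at 0.869 CPM in replicate 2, beside 8.22 to 8.54 CPM in the other ids. Plpp2 stood at 0.0579 CPM in replicate 2, beside 2.80 to 4.07 CPM in the other ids. Prdx6 stood at 438.1 CPM in replicate 3, beside 340 to 350 CPM in the other ids. Groups of 3, such as NC, were not examined in this way. What set these values apart was not tested.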

How the results depend on the processing

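The count of 0 genes at an adjusted p under 0.05 held under the alternatives tried other than 2: DESeq2 called 7, and leaving out mi699a-5p replicate 3 gave 2 (leave-one-out range 0 to 2). The pair called without that replicate was ENSMUSG00000118642.1 (-2.36) and Erbb2, a receptor tyrosine kinase (-8.28), both with an adjusted p of 0.0297. Erbb2, singled out after its values were seen, had 63 reads in mi699a-5p replicate 3, 2 in replicate 2 and 0 in replicates 1 and 4, against 253, 483 and 198 in NC. The number at an unadjusted p under 0.05 was 434, and 292 to 548 over the alternatives other than 1. Without the 3 blastomeres that stood apart, an alternative chosen after the data were seen, it was 734 with 0 genes called. They were taken from mi699a-5p alone by their ribosomal and respiratory levels, so the 734 is a description only. The split of the 434 into 252 higher and 182 lower became 202 and 234 with CPM of at least 10 in at least 3 mouse ids. It became 194 and 242 without mi699a-5p replicate 3. With the number in the mouse id as a replicate block, 0 genes were called and 381 had an unadjusted p under 0.05. The correlations of same-numbered ids (0.00, -0.07 and 0.03) gave no pairing. Of 93 genes named, all but Odf2 kept the sign of their log2 fold change under the alternatives tried. Odf2 (-0.12) had 0.24 with the block, 0.043 without the 3 blastomeres, and -0.29 to 0.13 when 1 mouse id was left out, the highest without NC replicate 3. Of 800 recomputed medians of the 40 lists, 48 (in 19 lists) moved by more than the SD between mi699a-5p ids. Without NC replicate 3 the median of the pluripotency list was 0.17 and that of glycolysis -0.07, both of opposite sign. Leaving out 1 mouse id moved the difference in detected genes per blastomere between -92.2 and 184, that in the percent of mitochondrially encoded reads between -0.34 and 0.41, and that in the mean correlation between blastomeres between -0.023 and 0.018. With 4 and 3 mouse ids of 4 to 8 blastomeres, a median standard error of 0.43 on the log2 scale limits what could be resolved.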
